A study of Mus musculus with 3 samples.

Results

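The transcripts of R1 mouse embryonic stem cells given BMP4 at 20 ng/ml for 4 h were compared with those of untreated R1 cells. R1 is an established mouse embryonic stem cell line, and the cells of both conditions were labelled undifferentiated; no genetic change or other agent was named for either, and no time was given for the untreated cells. Each condition was 1 array, so every difference below is a size on a pair of arrays, with no replicate error and no test. The comparison covered 18193 genes of 19324 named on the array, those of the 34945 probe sets, out of 45101, that were not controls and were paired with exactly 1 gene symbol. Of these probe sets 20122 exceeded the floor, the median of all values (3.44), on at least 1 array, and 14823 did not. Each gene was read from its brightest probe set, that with the largest mean of the 3 values, and 11594 genes were above the floor. The remaining array was from cells given the BMP antagonist noggin at 100 ng/ml for 4 h. It enters the floor, the choice of probe set and the choice of genes above the floor. Otherwise it is used only to set another value beside each gene. Values are log2 expression values computed by RMA, and "difference" means BMP4 minus untreated on that scale, where 1 is a 2-fold difference.

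Bone morphogenetic proteins bind paired type I and type II receptor kinases, which phosphorylate SMAD1, SMAD5 and SMAD9. These join SMAD4, enter the nucleus and bind DNA near target genes, among which the Id genes and the inhibitory SMAD genes are known to respond directly and early. In mouse embryonic stem cells, BMP4 acts together with leukaemia inhibitory factor, and Id proteins are known for holding back basic helix-loop-helix (bHLH) factors that drive neural differentiation.

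Few genes differed by much at 4 h, and most of the large differences were towards higher values. At least 2-fold higher values with BMP4 were found for 11 genes (0.0949% of the 11594), and at least 2-fold lower values for 1 gene (0.00863%). The 1.5-fold limit was passed by 26 genes on the higher side (0.224%) and 6 on the lower side (0.0518%). At a smaller limit, a log2 difference of 0.32, the balance was the other way, with 116 genes higher (1%) and 146 lower (1.26%). Counting any difference, 24.8% of genes were higher, 35.6% were lower and 39.6% had exactly the same value on both arrays, and the median difference over all genes was 0.00. Counts of higher and lower genes in the lists below are to be read beside these shares. The middle 98% of genes lay between −0.33 and 0.32, so Id1, Id2 and Id3 stood more than 2 log2 units outside the range of nearly all others.

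**Figure D1:**
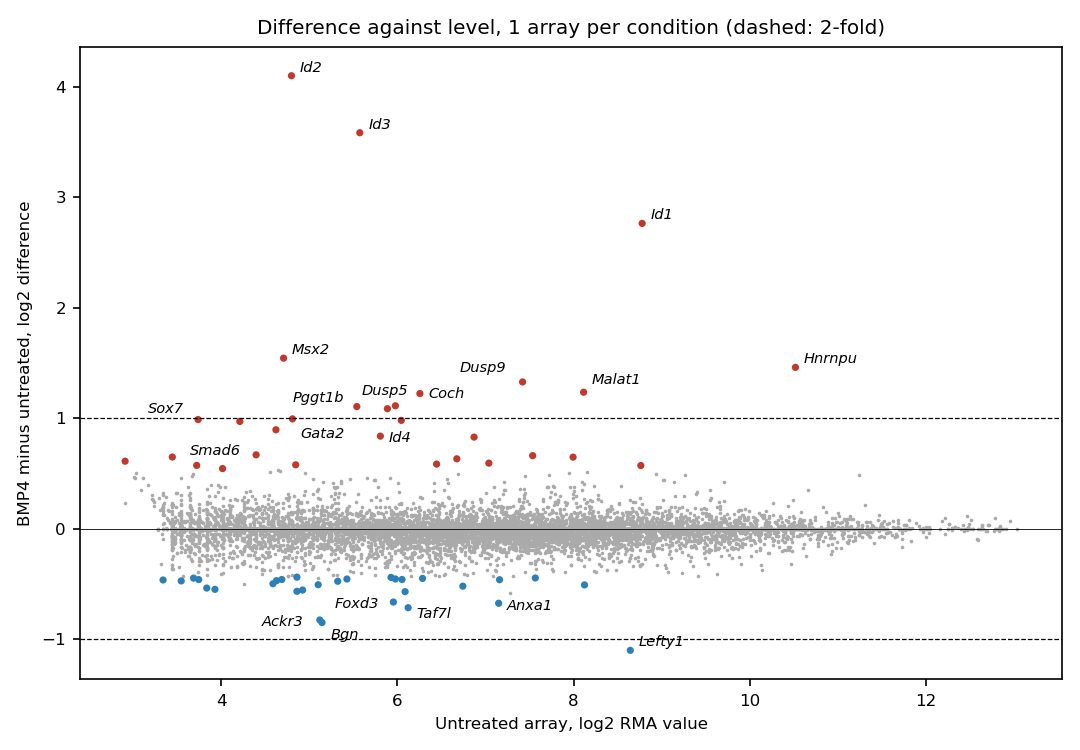
Difference, BMP4 minus untreated, against the untreated log2 value for the 11594 genes above the floor (grey), 1 array per condition; red and blue points are the 30 named genes with the largest differences in each direction, and dashed lines mark 2-fold. Id2, Id3 and Id1 lie at 4.10, 3.58 and 2.76, and Lefty1 at −1.10 is the lowest point; the grey points among the blue ones are genes with clone names, which were not among those named.

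The Id genes encode helix-loop-helix proteins without a DNA-binding region, which pair with bHLH factors and keep them off DNA. Id2 read 4.80 on the untreated array, 8.90 with BMP4 and 4.31 with noggin. For Id3 the values were 5.58, 9.16 and 5.31, and for Id1 they were 8.78, 11.54 and 8.59. In all of these the BMP4 array was far above the other arrays, which were within 0.5 of each other. Id4, the remaining family member, read 5.81, 6.65 and 5.41, a difference of 0.84. Other probe sets of these genes lay on the same side: the second probe set of Id2 read 4.14 untreated and 8.85 with BMP4, a difference of 4.71, and the other probe sets of Id4 gave differences of 0.34 and 0.50. Id1 and Id3 had 1 probe set each above the floor.

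The bases just before the transcription start are shown for Id2, Id3, Id4, Msx2 and Smad6, the BMP target genes past 1.5-fold that had 1 start in the promoter table, so that the letters known to be bound by SMADs can be seen or found missing. Each is the 250 bases upstream of the start in RefSeq, build GRCm38.p6, read 5′ to 3′ on the strand of the gene. Capitals mark GGCGCC, a GC-rich element bound by BMP-type SMADs, and CAGAC or its reverse complement GTCTG, the SMAD box. The windows are chr12:25096093-25096342, minus strand, for Id2; chr4:136143572-136143821, plus strand, for Id3; chr13:48260866-48261115, plus strand, for Id4; chr13:53472781-53473030, minus strand, for Msx2; and chr9:64022060-64022309, minus strand, for Smad6.
Id2: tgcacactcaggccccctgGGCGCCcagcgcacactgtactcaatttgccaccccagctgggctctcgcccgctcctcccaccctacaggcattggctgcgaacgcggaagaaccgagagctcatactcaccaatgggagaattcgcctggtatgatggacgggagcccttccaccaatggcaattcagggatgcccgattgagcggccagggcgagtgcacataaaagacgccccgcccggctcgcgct
Id3: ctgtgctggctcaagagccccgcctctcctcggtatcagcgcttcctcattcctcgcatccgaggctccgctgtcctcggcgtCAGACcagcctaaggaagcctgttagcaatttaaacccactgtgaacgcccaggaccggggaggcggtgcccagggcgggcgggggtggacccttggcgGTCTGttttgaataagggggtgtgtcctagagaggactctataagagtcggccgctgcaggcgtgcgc
Id4: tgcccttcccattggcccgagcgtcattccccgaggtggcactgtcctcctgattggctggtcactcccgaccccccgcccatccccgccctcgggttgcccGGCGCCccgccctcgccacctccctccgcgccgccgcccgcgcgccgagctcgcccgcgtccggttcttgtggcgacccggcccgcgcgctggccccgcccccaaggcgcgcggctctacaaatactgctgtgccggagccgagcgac
Msx2: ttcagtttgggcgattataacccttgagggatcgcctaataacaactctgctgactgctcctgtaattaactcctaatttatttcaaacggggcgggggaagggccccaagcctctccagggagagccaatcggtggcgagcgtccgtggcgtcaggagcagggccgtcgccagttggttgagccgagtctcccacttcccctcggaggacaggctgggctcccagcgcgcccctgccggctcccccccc
Smad6: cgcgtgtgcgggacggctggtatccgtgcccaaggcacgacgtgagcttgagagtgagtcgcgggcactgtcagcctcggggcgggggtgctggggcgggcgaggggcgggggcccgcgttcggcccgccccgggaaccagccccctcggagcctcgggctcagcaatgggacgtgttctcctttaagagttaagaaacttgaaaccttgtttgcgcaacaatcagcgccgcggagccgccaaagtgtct

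In these windows Id2 had 1 GGCGCC, 231 bases before the start site, and Id4 had 1, 148 bases before it. Id3 had no GGCGCC and 2 SMAD boxes, 167 and 68 bases before the start site. Msx2 and Smad6 had neither motif in their windows, although their values with BMP4 were 1.54 and 0.67 higher; known BMP elements can lie further from a gene than these windows reach.

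Across genes, GGCGCC was present upstream of at least 1 start for 10.8% of the 27025 genes in the promoter table and for 20.2% of the 9399 of them that were above the floor. Of the 30 named genes highest with BMP4, 21 were in the table and 11 of them (52.4%) had GGCGCC: Atp8a1, Coch, Dusp5, Gata2, Hnrnpu, Id2, Id4, Ier5l, Mpst, Scaf11 and Slc17a5. Among these, Atp8a1, Hnrnpu, Ier5l and Scaf11 stood out in 1 probe set each, with their other probe sets between −0.07 and 0.05. Of the 30 lowest, 24 were in the table and 2 (8.33%), Car7 and Rmdn2, had GGCGCC. The other probe sets of Car7 and Rmdn2 lay between 0.00 and 0.03. GC content lay in the same order, with a median of 62.8% in the windows of the highest genes, 56.2% in those of the lowest and 60% in all genes above the floor, and its part in the motif count was not tested. The short SMAD box was found for 8 of the 21 highest (38.1%), 12 of the 24 lowest (50.0%) and 45.8% of the genes above the floor. Of the listed BMP-SMAD target genes above the floor, 11 were in the table. GGCGCC was found for 4 of these 11 (36.4%) and the SMAD box for 3 (27.3%), with a median GC content of 67.6%. TATAAA or its reverse complement TTTATA, the TATA box letters, were found for 1 of the 21 highest (Gadd45b) and for 7 of the 24 lowest: Ackr3, Ank2, Anxa1, Ephx1, Map10, S100a4 and Taf7l. All genes above the floor had the TATA letters in 7.58% of cases. Motifs were searched on both strands and matches of different motifs may overlap. These shares describe letters in sets of genes chosen by their values, with no test.

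BMP signalling is known to switch on inhibitors that act inside the cell or at its surface, and Smad6, Smad7 and Bambi read higher. Smad6, an inhibitory SMAD, read 4.40 untreated, 5.07 with BMP4 and 4.40 with noggin. Smad7, the other inhibitory SMAD, read 8.003, 8.35 and 8.17, and its second probe set gave a smaller difference of 0.13. Bambi, a pseudoreceptor that lacks the kinase domain, read 5.66, 6.12 and 5.65. For each of these the BMP4 value was the highest of the arrays. Skil, a SMAD-binding co-repressor, read 8.76, 9.34 and 8.83, and its other probe set gave 0.83.

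The representative probe sets of the signalling machinery mostly differed little. Of 21 SMAD and SMAD regulator genes above the floor, 10 were higher, 6 were lower and 5 were exactly equal, with a median of 0.00; after Smad6, Skil and Smad7 the next were Tob2, an anti-proliferative regulator, and Smurf1, a ubiquitin ligase for SMADs, both at 0.12. Smad1 read 7.15 untreated and 7.03 with BMP4, although another of its probe sets gave 0.20, and Smad4 and Smad5 were exactly equal at 9.33 and 5.43. The other probe sets of Smad4 gave −0.17 and −0.18, and those of Smad5 gave −0.02 and 0.34, the latter from 3.33 untreated, below the floor. Among 12 receptor and co-receptor genes the median was 0.00: Bmpr1a, a type I receptor, differed by 0.10, with its other probe sets between 0.06 and 0.33, and Acvr1 and Bmpr2 were exactly equal. Hjv, a co-receptor of the repulsive guidance family, read 3.93 untreated, 3.38 with BMP4 and 3.37 with noggin, so that both treated arrays were below the floor. The 10 ligand genes had a median of 0.00, from Bmp4 itself at −0.26 (8.50 untreated, 8.24 with BMP4) to Bmp1, a procollagen protease named with the family, at 0.26. Of 7 antagonist genes, Fstl1, a follistatin-like protein, was lowest at −0.32 and Dand5 highest at 0.23, and Nog stood below the floor on every array at 2.49 untreated and 2.48 with BMP4.

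Of 20 BMP-SMAD target genes above the floor, 17 were higher, 1 was lower and 2 were equal, with a median of 0.52 against 0.00 over all genes. Among all genes above the floor 24.8% were higher and 35.6% lower. The list was drawn up with values of these arrays known, and it holds Dusp9, Skil and Snai1; without these 3, or without Id1, Id2 and Id3, the median was 0.34, and over all 28 listed genes, with no floor, it was 0.14. At least 2-fold higher values were seen in 5 of the 20, namely Id1, Id2, Id3, Msx2 and Dusp9, against 0.0949% of all genes. At the other end were Tcf7l1, a TCF repressor, at −0.03, and Atoh8, a bHLH factor known as a BMP target in other cells, at 0.00. Msx1, the homologue of Msx2, read 3.65 untreated and 3.78 with BMP4, a difference of 0.13. Hey1, a bHLH repressor shared with the Notch pathway, was higher by 0.15, and Tbx3, a T-box factor, by 0.07. Gata3, Dlx2, Dlx5, Smad9, Cdx2 and others of the list stayed below the floor on every array, 8 genes in all.

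**Figure D2:**
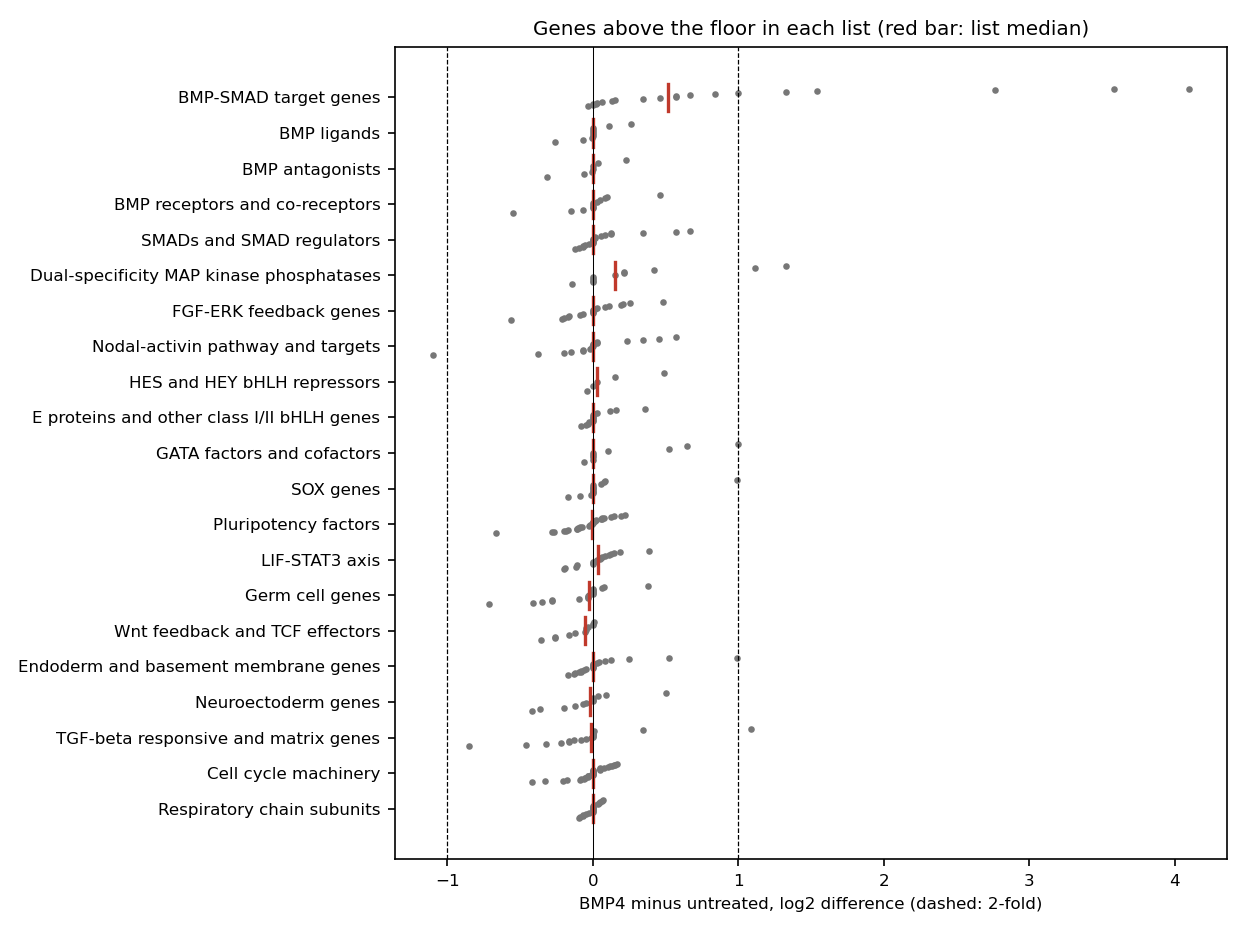
Differences, BMP4 minus untreated on the log2 scale, of the genes above the floor in 21 gene lists (grey points, 1 per gene), with the list median as a red bar and 2-fold as dashed lines; a gene can be in several lists. The BMP-SMAD targets have a median of 0.52 and the dual-specificity phosphatases of 0.15, while the medians of the other lists lie close to 0.

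The bHLH factors that Id proteins can bind were mostly near level in their representative probe sets. Tcf3, which encodes the E proteins E12 and E47, was higher by 0.12, Tcf12 by 0.01, and Tcf4 was lower by 0.03. Other probe sets gave up to 0.33 for Tcf3 and down to −0.18 for Tcf4. Of 14 such genes above the floor, 5 were higher, 4 lower and 5 equal. Neurog3, a proneural factor, had the largest difference at 0.36 and Ascl2, a trophoblast factor, the lowest at −0.08. Among the 5 HES and HEY repressors above the floor, Hes1, an oscillating repressor in embryonic stem cells, read 6.69 untreated, 7.18 with BMP4 and 6.92 with noggin. Hes6 differed by 0.03, and Hes5 was exactly equal.

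Some developmental transcription factor families had 1 member that stood out. In the homeobox genes outside the Hox clusters this was Msx2, at 4.71 untreated, 6.25 with BMP4 and 4.77 with noggin; of 23 such genes 6 were higher, 11 lower and 6 equal, and the next was Prrx2 at 0.48. In the GATA list 2 of 9 genes were at least 1.5-fold higher, Gata2 and Lmo2, against 0.224% of all genes. Gata2, which acts in blood and trophoblast cells, read 4.81, 5.81 and 4.34, with a smaller difference of 0.27 in its second probe set. Gata6, a primitive endoderm factor, read 4.67, 5.20 and 4.82, and its second probe set gave 0.90 (4.33 untreated, 5.23 with BMP4, 4.77 with noggin). Lmo2, a bridging protein that works with GATA factors, read 3.45, 4.10 and 3.42. Gata3 and Gata4 were below the floor. Among 14 SOX genes, Sox7, a factor of endoderm and endothelium, read 3.74, 4.73 and 3.84, while its relatives Sox17 and Sox18 differed by 0.08 and 0.07. The 10 Hox genes above the floor lay between −0.05 (Hoxc9) and 0.08 (Hoxc13).

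MAP kinase phosphatases, which remove phosphate from ERK and its relatives, were another group with large values. Dusp9 read 7.42 untreated, 8.75 with BMP4 and 7.40 with noggin, and its other probe sets gave 1.27 and 1.07. Dusp5, which acts on ERK in the nucleus, read 5.98, 7.09 and 6.09. Dusp6, which acts on ERK in the cytoplasm, read 7.21, 7.63 and 6.97. Of 11 members above the floor, 6 were higher, 1 was lower (Dusp16 at −0.14) and 4 were equal, with a median of 0.15. Over all genes 24.8% were higher and 35.6% lower. Other feedback genes of FGF and ERK signalling did not share one direction: 8 of 19 were higher and 7 of 19 lower (median 0.00). Spry4, a Sprouty inhibitor, was highest at 0.48, and Egr1, an early ERK-responsive factor, was at −0.21, Etv5 at −0.17 and Spred1 at −0.17. Fgfbp1, a carrier protein that releases FGFs from the matrix, read 4.86, 4.30 and 5.07, a difference of −0.57. Among immediate-early genes, Klf10, a TGF-beta inducible Krüppel-like factor, was highest at 0.35, Ier2 was at 0.25, and Mycn at −0.22 was lowest.

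Nodal, a TGF-beta family ligand that signals through SMAD2 and SMAD3, is held in check by the secreted Lefty proteins, whose genes it induces. Lefty1 read 8.64 untreated, 7.54 with BMP4 and 8.55 with noggin, and it was the only gene past 2-fold on the lower side. Lefty2 read 8.48, 8.10 and 8.34, and Nodal 8.85, 8.65 and 8.85. In all of these the BMP4 value was the lowest, although the other probe set of Nodal was exactly equal on the arrays. Foxh1, the SMAD partner at Nodal targets, differed by 0.03, the co-receptor gene Tdgf1 by −0.02, and Smad2 was exactly equal. Eomes and Mixl1, T-box and homeobox genes that Nodal also controls, were higher by 0.46 and 0.23. The other probe set of Eomes gave 0.11, and Mixl1 read 3.44 untreated, at the floor, and 3.67 with BMP4. Over the 17 genes of the pathway list, 6 were higher and 8 lower.

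Factors of the undifferentiated state kept their levels within a narrow range except Foxd3. Foxd3, a forkhead repressor needed in pluripotent cells, read 5.96 untreated, 5.29 with BMP4 and 5.96 with noggin. Of 31 pluripotency genes 11 stood above untreated, 17 below and 3 equal, at a median of −0.006. Next to Foxd3 were Prdm14 at −0.28 and Nr5a2 at −0.27; at the other end Pou5f1 was at 0.22 and Fgf4 at 0.19. Klf4 read 10.26 untreated and 10.38 with BMP4. In the LIF-STAT3 list 11 of 18 were higher and 4 of 18 lower (median 0.04); Socs2, a cytokine signalling inhibitor, was at 0.39 and Socs3 at −0.12. In the germ cell list, 3 of 19 were higher and 10 of 19 lower, at a median of −0.02. Beside these 3 lists, 24.8% of all genes above the floor were higher and 35.6% lower. Taf7l, a germ cell form of a TFIID subunit, read 6.12, 5.41 and 6.10, and Dazl, an RNA-binding protein, was at −0.41. Tfap2c, a factor known to act in primordial germ cells and trophoblast, read 7.10 untreated, 7.48 with BMP4 and 6.99 with noggin.

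Of 12 Wnt feedback and effector genes, 9 were lower and 1 higher, where 35.6% of all genes were lower and 24.8% higher. The median was −0.05, and with noggin 6 were lower and 3 higher. Single probe sets of a gene differed with an SD of 0.13, which does not measure the error of a median over 12 genes. Notum, a secreted Wnt deacylase, was at −0.36, and Znrf3, a ligase that removes Wnt receptors, at −0.26, while Axin2, a widely used Wnt target, was exactly equal. Lgr4, an R-spondin receptor, was at −0.26.

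Genes that mark departure from the undifferentiated state showed no common direction, where 24.8% of all genes were higher and 35.6% lower. Of 12 mesoderm and primitive streak genes above the floor 5 were higher and 2 lower; Snai1, a zinc finger repressor of epithelial genes, read 3.72 untreated, 4.30 with BMP4 and 4.01 with noggin, and 17 more of the list were below the floor. Of 20 endoderm and basement membrane genes 7 were higher and 8 lower. Besides Sox7 and Gata6, Amn, a visceral endoderm gene, was at 0.25, while the basement membrane genes Lama1, Col4a2 and Lamc1 were at −0.17, −0.13 and −0.12. In the trophoblast and simple epithelial list Peg10 and Eomes were at 0.46 each and Rhox9 at −0.37. Among 12 neuroectoderm genes, 3 were higher and 6 lower, with Zic2 at 0.50 and Ncam1 and Pax6 at −0.42 and −0.37.

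Defining markers were read for the labelled cell type and for others that such cultures can hold. All 10 markers of undifferentiated embryonic stem cells were above the floor, with medians of 11.08 untreated and 11.16 with BMP4. Of the markers of fibroblasts, which can serve as feeder cells, 12 of 17 were above the floor, while Col1a1, Col3a1, Lum, Prrx1 and Twist2 were below it; the 12 had medians of 4.34 and 4.19, and 5 of them (Acta2, Col6a3, Dcn, Pdgfrb and Twist1) were exactly equal, 2 (Thy1 and Vim) were higher by 0.02 and 0.01, and 5 were lower. The lower ones were S100a4 at −0.55, Tagln at −0.22, Col1a2 at −0.17, Lox at −0.10, and Postn, which differed by −0.32 but read below the floor on both arrays, at 3.32 untreated, and was kept through the noggin array alone. Of 10 primitive endoderm markers 8 were above the floor, with medians of 4.12 untreated and 4.37 with BMP4. Of these, 4 were higher, led by Sox7 at 0.99 and Gata6 at 0.52, 1 was lower (Lama1 at −0.17) and 3 were equal. Only 2 of 9 trophoblast markers were above the floor, and Cdx2 and Elf5 were below it. Above the floor were also 6 of 10 neuroectoderm, 5 of 9 mesoderm and 4 of 10 blood and endothelium markers. In bulk RNA a different share of such cells and a different amount of transcript per cell cannot be told apart. Poly-A spikes are RNA added ahead of labelling, and each of their 24 probe sets read lower with BMP4 (median −0.63, from −1.20 to −0.29). With noggin 23 of the 24 were also lower than untreated (median −0.18, from −0.40 to 0.01). The 18 hybridisation spike probe sets, added afterwards, had medians of 0.01 with BMP4 and −0.01 with noggin. What part the spike differences have in any other difference was not tested.

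Beyond the BMP, phosphatase and transcription factor genes, the highest values belonged to genes with varied roles. Coch, a secreted matrix protein known from the inner ear, read 6.26 untreated, 7.48 with BMP4 and 6.23 with noggin. Ccn2, a matricellular growth factor shared by the TGF-beta and YAP pathways, read 5.89, 6.97 and 6.02; its relative Ccn1 was at 0.34, and 4 of the 16 YAP-TEAD target genes were below 0. Gadd45b, a stress and SMAD-responsive gene, read 7.54, 8.20 and 7.41, but 1 of its other probe sets was exactly equal. Mpst, a sulfurtransferase, differed by 0.97, Atp8a1, a phospholipid flippase, by 0.90, and Bbx, an HMG-box gene, by 0.83. The other 4 probe sets of Atp8a1 lay between 0.00 and 0.05, and of the other 4 of Bbx 2 were exactly equal and 2 gave 0.40 and 0.44. Edn2, an endothelin, crossed the floor, at 2.91 untreated and 3.52 with BMP4. N6amt1, a methyltransferase gene, was at 0.58 and Slc17a5, a lysosomal sialic acid carrier, at 0.54.

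**Figure D3:**
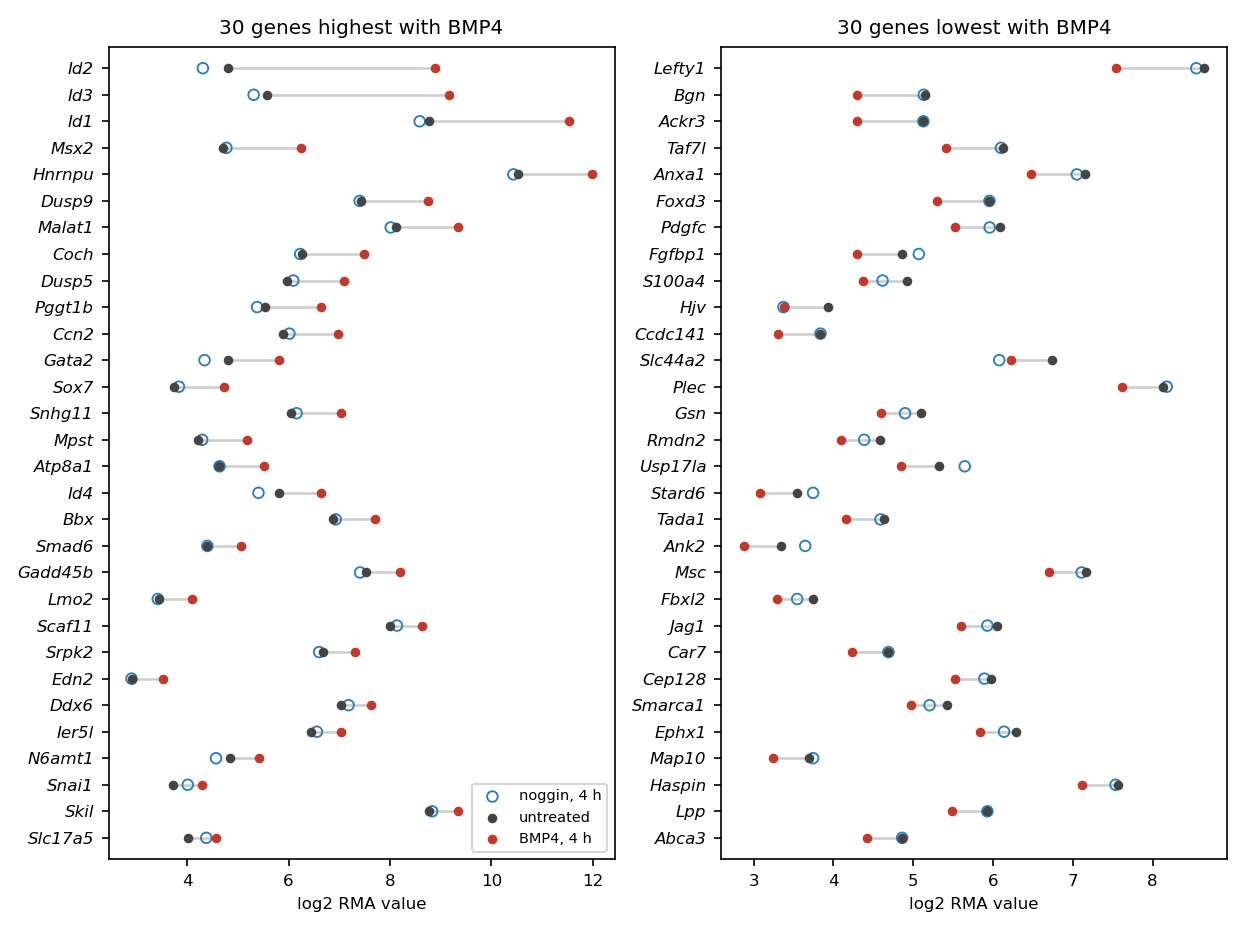
Log2 values of the 30 named genes highest (left) and the 30 lowest (right) with BMP4, 1 row per gene, on the untreated (grey), BMP4 (red) and noggin (open blue) arrays, 1 array each. On the left the noggin circles stay near the untreated points, between −0.49 and 0.36 from them; on the right the range is −0.67 to 0.32.

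Apart from Lefty1, the lower side held differences of under 2-fold. Bgn, the proteoglycan biglycan, read 5.15 untreated, 4.30 with BMP4 and 5.13 with noggin. Another probe set of Bgn gave −0.93 and a further one was exactly equal at 4.10. Ackr3, a scavenger receptor for the chemokine CXCL12, read 5.12, 4.30 and 5.13. Anxa1, a phospholipid-binding annexin, read 7.15, 6.48 and 7.05. For Bgn and Ackr3 the untreated and noggin values differed by under 0.02, so that BMP4 alone stood apart on these arrays.

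Other genes of that side were Pdgfc, a platelet-derived growth factor (−0.57), S100a4, a calcium-binding protein (−0.55), Plec, a cytoskeletal linker (−0.51), Gsn, which severs actin filaments (−0.51), and Jag1, a Notch ligand (−0.46). The other probe set of Jag1 lay on the opposite side at 0.03, those of Plec and Pdgfc gave −0.07 and −0.22, and those of Gsn ran from −0.22 to 0.00. Msc, a bHLH repressor also called musculin, read 7.16 untreated, 6.70 with BMP4 and 7.11 with noggin. Smarca1, an ISWI chromatin remodeller, was at −0.45, Haspin, a histone kinase of mitosis, at −0.44, Ephx1, an epoxide hydrolase, at −0.45 and Lpp, a focal adhesion protein, at −0.44. The other probe sets of Lpp ran from −0.18 to exactly equal. Slc44a2, a choline transporter-like gene, read 6.74, 6.23 and 6.08, lowest with noggin, but its other probe sets were exactly equal on all arrays. Of the 30 lowest, 6 read below the floor with BMP4, Hjv and Stard6 among them. Ank2, another of the 6, was below it untreated as well, at 3.34, and was kept through the noggin array alone, at 3.65. Vcan, the proteoglycan versican, just outside the 30 and chosen after its values were seen, was at −0.43, and the 15 proteoglycan and glycoprotein genes, Bgn and Vcan included, went both ways, with 7 higher and 7 lower.

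The noggin array shares the untreated array with this comparison, so its values stand beside the others as a description only. On it, 1 gene was at least 1.5-fold higher (0.00863%) and 8 were at least 1.5-fold lower (0.0690%) than untreated. For the 30 genes highest with BMP4, the noggin value was above the untreated value in 14, below it in 15 and equal in 1, with a median of 0.00; Id2, Gata2 and Id4 were lowest, at −0.49, −0.47 and −0.40. For the 30 lowest it was above in 7, below in 18 and equal in 5, with a median of −0.04.

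**Figure D4:**
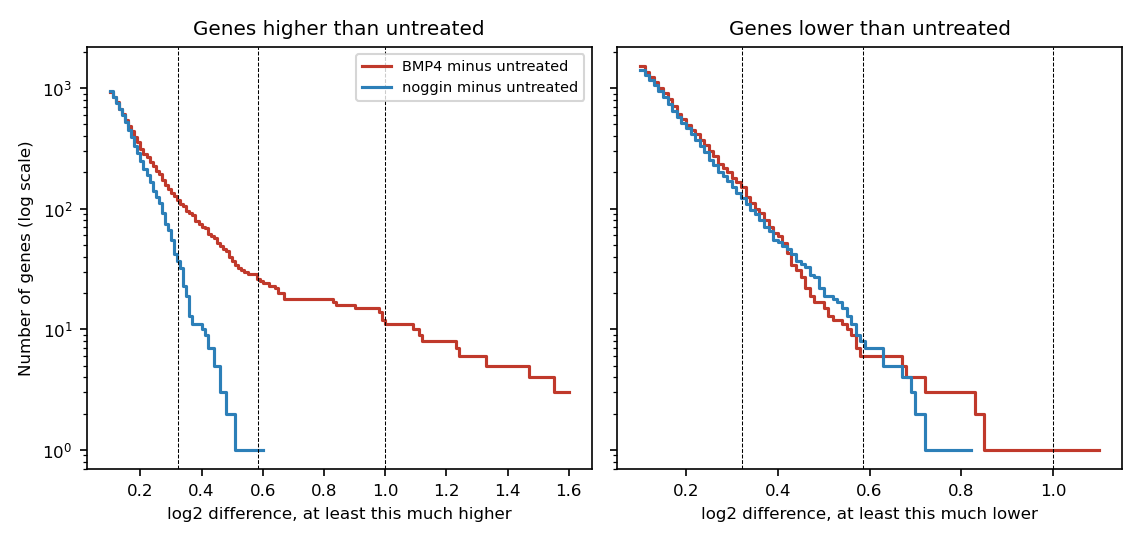
Number of genes (log scale) at least as much higher (left) or lower (right) than untreated as the log2 limit on the horizontal axis, for BMP4 (red) and noggin (blue), with dashed lines at 0.32, 1.5-fold and 2-fold. On the higher side BMP4 has 116 genes at 0.32 and 26 at 1.5-fold against 36 and 1 for noggin; on the lower side it has 146 and 6 against 121 and 8.

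The spread of the differences varied moderately with level, without a steady fall. The SD over genes was 0.12 for those with untreated values up to 4, and 0.15 between 4 and 5 and between 5 and 6. It was 0.11 between 6 and 7, 0.12 between 8 and 10 and 0.09 above 10. The bands with the largest SDs hold Id2 (4.80 untreated, a difference of 4.10) and Id3 (5.58 untreated, a difference of 3.58). The SDs without these genes were not computed, so a change of spread with level in the other genes was not tested. Exact equality was more frequent at low levels, 56.6% of genes up to 4 against 22.5% above 10. Genes past 1.5-fold on the higher side were spread over all levels, with 6 between 4 and 5, 5 between 5 and 6 and 4 between 7 and 8. Of the genes that crossed the floor with a difference of at least 0.32 in size, 7 were above it with BMP4 but not untreated and 15 untreated but not with BMP4.

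Probe sets of 1 gene did not always tell the same story. Among 5139 genes with several probe sets above the floor, 25.1% had at least 1 on the side opposite to the representative. Hnrnpu, an RNA-binding protein of the nuclear matrix, read 10.52 untreated, 11.98 with BMP4 and 10.44 with noggin, but its other 4 probe sets lay between −0.07 and 0.03. Malat1, a long non-coding RNA of nuclear speckles, read 8.11, 9.35 and 8.02; its other probe sets ran from exactly equal to 2.34. Pggt1b, a prenyltransferase subunit, read 5.54, 6.65 and 5.38, and its other probe sets gave 0.00 and −0.05. Snhg11, a small nucleolar RNA host gene, read 6.05, 7.03 and 6.16, and its other probe set gave −0.07. Scaf11 and Srpk2, genes of splicing regulation at 0.65 and 0.63, also had probe sets on the lower side, down to −0.05 and −0.13. Ddx6, an RNA helicase, was at 0.59, and its other probe sets gave 0.07 and 0.80.

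**Figure D5:**
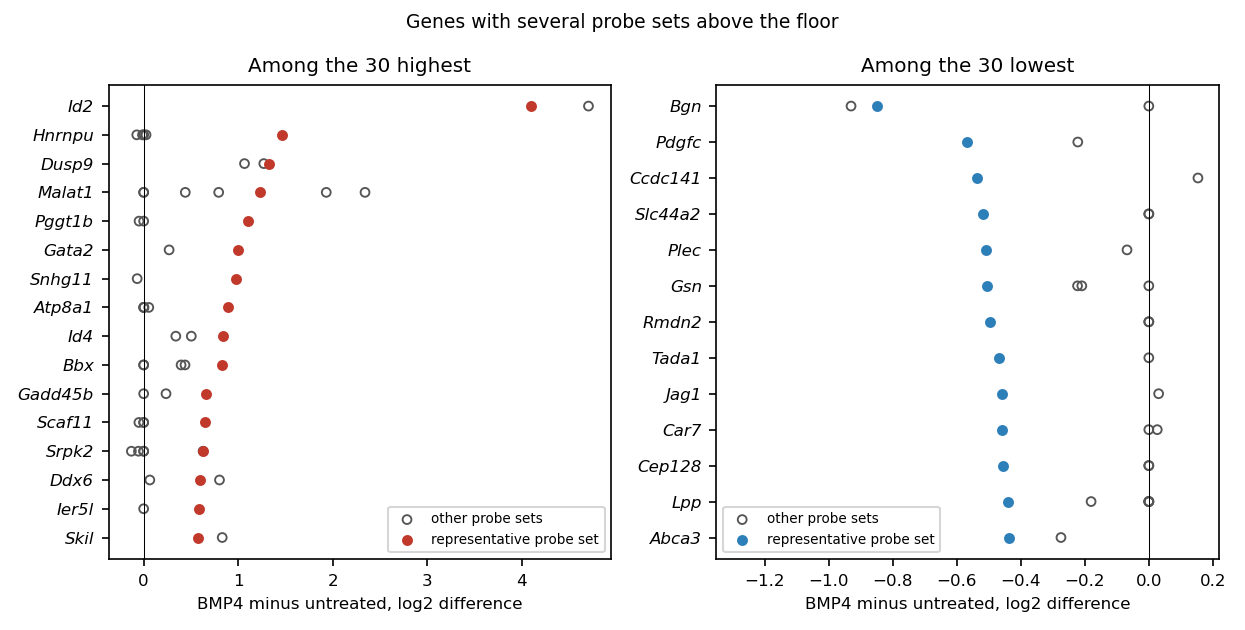
Differences of every probe set above the floor for the named genes with several, among the 30 highest (left) and the 30 lowest (right); filled points are the representative probe sets and open circles the others. Id2 and Dusp9 have all probe sets past 2-fold, while the open circles of Hnrnpu and Pggt1b lie near 0 and those of Malat1 spread from 0.00 to 2.34.

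Of the 16 genes among the highest 30 with several probe sets, 6 had all of them higher and 8 had another past 0.32 on the same side. Of the 13 among the lowest, 3 had all of them lower and 1, Bgn, had another past 0.32 in size.

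Over the 20122 probe sets that exceeded the floor, those 2-fold or more above untreated numbered 28 (0.139%) and those as far below it 1 (0.00497%); at 1.5-fold the counts were 104 (0.517%) and 12 (0.0596%). The lean to higher values was larger in probe sets that do not represent their gene. Of 8528 such probe sets 78 were at least 1.5-fold higher (0.915%) and 6 at least 1.5-fold lower (0.0704%), and 66 of the 78 belonged to genes whose representative differed by under 0.32. With noggin the same probe sets gave 1 higher and 24 lower, and all 20122 gave 2 higher and 32 lower. Aspm, a spindle protein, is an example, chosen after its values were seen: its representative was exactly equal, while another probe set read 5.32 untreated, 6.67 with BMP4 and 5.41 with noggin. Atrx, a chromatin remodeller, differed by 0.02 in its representative and by 1.01 in another probe set, which read 5.94, 6.95 and 6.02. Nktr, a cyclophilin-related gene, had a representative at −0.03 and another probe set at 1.33. Zfp292, Nup214, Armc9, Gbf1, Smc2, Sptbn1, Pabpc1 and Pfkp followed the same pattern, with another probe set past 2-fold beside a representative under 0.32, which makes 11 genes in all. Those of Zfp292 and Armc9 started below the floor, at 2.49 untreated.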

How the data were processed

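Total RNA of 3 samples of R1 cells was measured, 1 array each. The authors deposited log2 expression values per probe set, computed by RMA per the submitters' processing notes; the settings and version of RMA and the build are not given in the sources used here. RMA fits the probes of a set over few arrays by median polish, which can give exactly equal values (here equal to 6 decimals), and its quantile step hides any general shift. The precision is limited by the number of arrays; there is no read depth.

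Probe sets were named by the platform annotation: 34945 had 1 symbol, 932 several, 9160 none and 64 were controls; 34741 matched RefSeq by Entrez identifier. Values were used as deposited, with a floor at their median, 3.44. Differences were computed with Python 3.11.15, numpy 2.4.6 and pandas 2.3.3, and the arithmetic was tested on simulated data. Lowess (statsmodels 0.14.6, span 0.3), other floors and other representatives were alternatives. The members, the 39 gene lists and 7 marker lists were chosen with earlier results of these data known.

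Named genes include the 30 highest and 30 lowest above the floor, with clone names left out. For these, a probe set on the opposite side is given where the gene's value is. List members past 1.5-fold and the 2 extreme members each way of a described list are also named. So are pathway genes such as Id1 to Id4, Smad1 and Nodal, whatever their values. Others are illustrations chosen after their values were seen. For list members outside the 30 highest and lowest, mostly the representative alone is given. Some of them had another probe set on the opposite side, such as Meg3 (up to 0.26) and Dnmt3a (up to 0.14). Promoter letters are from RefSeq, 250 bases upstream of each start, without the 50 after it that the planned windows of 300 hold.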

Additional observations from a re-analysis of the deposited data

Results flagged for a closer look

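A pair of probe sets without a gene symbol, which lie outside the genes compared, stood at least 2-fold above the untreated array with BMP4. Probe set 1428670_at read 6.02 untreated, 7.40 with BMP4 and 5.77 with noggin, a difference of 1.376. Probe set 1456319_at read 7.96, 9.16 and 7.98, a difference of 1.195. They came to attention because they carry a signal in data that the gene comparison does not use. Of 2633 probe sets with several symbols or none above the floor, these 2 were at least 2-fold higher and 0 were 2-fold lower; at 1.5-fold the counts were 14 and 5. These are values of 1 array per condition, and no test was made.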

How the results depend on the processing

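No paired analysis was possible because each condition has 1 array and the labels give no replicate numbers. Counts of genes and probe sets past a limit stayed within 1.5 times the reported count in 60 of 66 cases. With all probe sets of a gene averaged, 7 genes were 2-fold higher in place of 11, 17 were 1.5-fold higher in place of 26, and 68 were lower by at least 0.32 in place of 146. With the floor at the 75th percentile, 3 were 1.5-fold lower in place of 6, 68 were higher by at least 0.32 in place of 116, and 69 were lower by as much. Of the 12 genes past 2-fold, averaging lost Hnrnpu, Malat1, Msx2 and Pggt1b, probe sets with the plain suffix alone lost Id1, Id2 and Malat1, a representative chosen on the untreated array lost Hnrnpu, and the other settings tried lost none. Id1 and Id2 have no plain-suffix probe set above the floor, so that setting left them out whatever their differences. The BMP-SMAD median of 0.52 was 0.14 with no floor, 0.84 with the higher floor, and 0.34 both without Dusp9, Skil and Snai1 and without Id1, Id2 and Id3; these last 2 alternatives were chosen after seeing the data. Signs turned for the neuroectoderm median (0.059 with averaged probe sets, −0.02 otherwise reported), the primitive endoderm markers (−0.17 with the higher floor, where 1 gene is left) and Snhg11 (−0.069 with the representative chosen on the untreated array). Differences of named genes stayed within the spread among probe sets of a gene, an SD of 0.13, in 586 cases, moved further in 41 and turned in 1. Fewer genes or other probe sets enter under these settings, and no further cause was tested.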

Other observations

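Most genes in groups outside the BMP, developmental and matrix programmes varied little between the untreated and BMP4 arrays in their representative probe sets. The 19 respiratory chain genes lay between −0.09 (Ndufs1) and 0.07 (Atp5b), and the 17 cholesterol synthesis genes between −0.19 (Hmgcs1) and 0.13 (Insig1). Of 33 genes of the cell cycle machinery 11 were higher and 13 lower; Cdc25c, a phosphatase that activates mitotic kinases, was at −0.42 and Rb1, the retinoblastoma protein gene, at −0.33, against Ccnd3 at 0.16. Of 29 chromatin regulators 10 were higher and 11 lower, with Uhrf1 at 0.30 and Tet1 at 0.28 highest and Dnmt3a at −0.17 lowest. Besides Hnrnpu, the splicing factor genes with the largest differences were Taf15 at 0.31 and Hnrnpl at 0.27. The 3 genes of the 2-cell-like state above the floor, Usp17la, Zfp352 and Eif1a, were all lower, at −0.47, −0.21 and −0.16. Of all genes above the floor 35.6% were lower, and with noggin 2 of these 3 were higher and 1 was lower. Apart from Malat1, the nuclear non-coding RNA genes included Neat1 at 0.10 and Meg3 at −0.19.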
